A study of Mus musculus with 6 samples.

Results

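The cathepsins are the proteases of the lysosome, and cystatin C is the main secreted inhibitor of the cysteine cathepsins. Expression of 9 cathepsin genes (Ctsa, Ctsb, Ctsc, Ctsd, Ctsh, Ctsk, Ctsl, Ctss and Ctsz) and of Cst3, which encodes cystatin C, was compared in cells of the Lewis lung carcinoma (LLC), a tumour line of C57BL/6 mice. The genes were taken by symbol, which gave all 10 of the names sought among 18182 genes in the files. RNA sequencing had been done on tumour cells marked with red fluorescent protein (LLC-RFP) and sorted from subcutaneous tumours of wild-type C57BL/6 mice. The mice had received either LLC-RFP cells by themselves (LLC alone, 3 libraries) or LLC-RFP cells together with bone marrow-derived mesenchymal stem cells (LLC with BMSCs, 3 libraries). The sort on red fluorescence was the step that both groups shared and that was to separate the tumour cells from host cells and BMSCs. The methods give no purity of the sorted cells. No source used here says that the 3 libraries of a group came from separate mice, so p values measure the spread between these libraries, which may be technical.

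Cathepsins are made as inactive precursors, tagged with mannose 6-phosphate in the Golgi and carried to the acidic lysosome, where they mature and break down proteins. Most are cysteine proteases, whereas Ctsd encodes an aspartic protease and Ctsa a serine carboxypeptidase. Tumour cells and macrophages also secrete them, and outside the cell they can cut matrix proteins, while cystatin C binds and blocks the cysteine members.

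Of the 10 genes, 9 passed edgeR's filter on low counts and were tested. At an adjusted p under 0.05, 3 were higher in LLC with BMSCs (Ctsc, Ctsh and Ctss) and 5 were lower (Ctsa, Ctsb, Ctsd, Ctsl and Cst3), while Ctsz was not called and Ctsk was too low to be tested. The background was wide, because 31.5% of the 13353 tested genes were called higher and 31.3% lower. The normalized counts of the groups did not overlap for 8 of the 9 tested genes, against 71.3% of all tested genes. The median log2 fold change was -0.39 over the 9 genes and 0.01 over all tested genes, and the median size of the change, whatever its sign, was 0.73 against 0.38. The median of the members was not stable and ran from -0.45 to -0.0021 over the alternatives, in some of which Ctsk was tested too. The upper end was reached without replicate 3 of LLC alone, and the value was -0.03 without replicate 1 of LLC with BMSCs. Both of these fits tested 10 members, with Ctsk among them. In the alternatives that tested the same 9 members the median ran from -0.44 to -0.17. Ctsc and Ctss passed the filter only through LLC with BMSCs, where they are high, so their calls and the counts above are descriptions of the members.

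**Figure D1:**
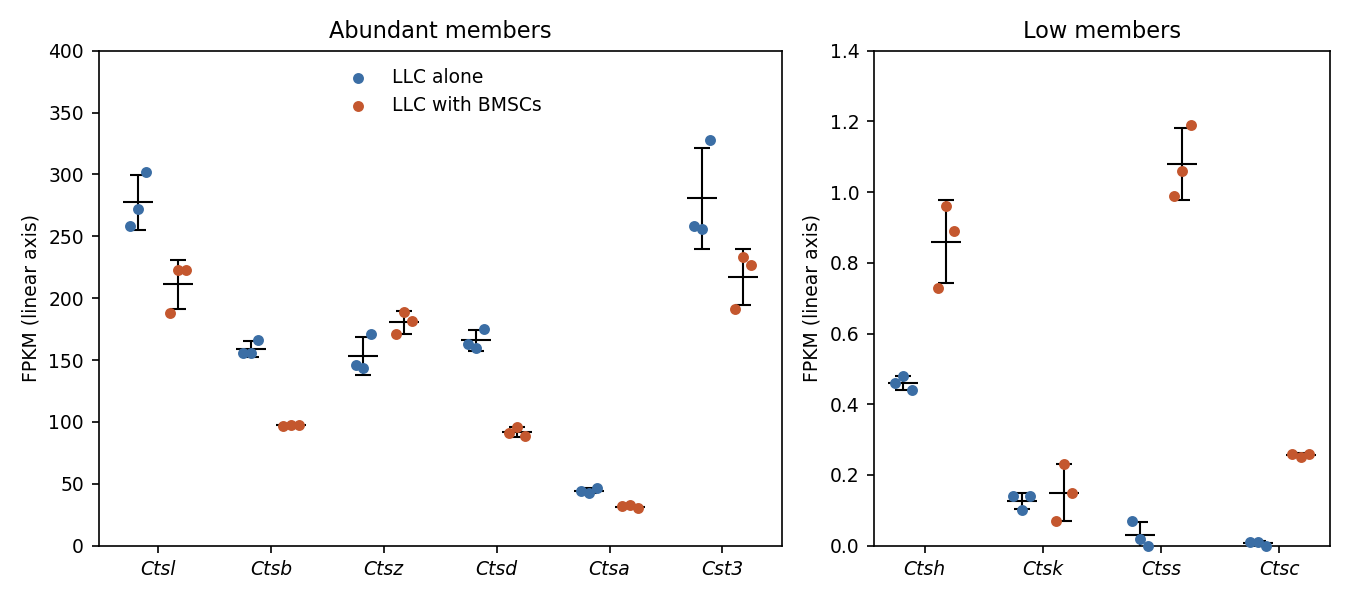
Level of the 10 genes in FPKM (fragments per length of transcript and size of library, linear axes) in each library of LLC alone (blue) and LLC with BMSCs (orange), with the abundant genes on the left and those at no more than 1.19 FPKM on the right. Points are libraries, and bars are the mean and SD of 3 libraries. Ctsb, Ctsd and Ctsa fell with no overlap, Ctsz overlapped between the groups, and Ctss and Ctsc were near 0 in LLC alone.

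Sequences before the start of the genes are shown for those that fell together, which code for lysosomal enzymes, and for those that rose from near 0. The searched motifs were the E-box core of the CLEAR element (CACGTG), which the MiT/TFE factors that control lysosomal genes bind, the interferon-stimulated response element core (GAAA, any 2 bases, GAAA) and the gamma-activated site core (TTCNNNGAA), each on both strands. RefSeq windows (GRCm38.p6) that run from 250 bases before to 50 bases after an annotated start were found for 8 of the 10 genes, with 2 for Ctsa, and none for Ctsb and Ctsh. The window of Ctsd, a gene that fell, lies on the minus strand at chr7:142387778-142388077 and holds 2 E-box cores, in capitals.
Ctsd: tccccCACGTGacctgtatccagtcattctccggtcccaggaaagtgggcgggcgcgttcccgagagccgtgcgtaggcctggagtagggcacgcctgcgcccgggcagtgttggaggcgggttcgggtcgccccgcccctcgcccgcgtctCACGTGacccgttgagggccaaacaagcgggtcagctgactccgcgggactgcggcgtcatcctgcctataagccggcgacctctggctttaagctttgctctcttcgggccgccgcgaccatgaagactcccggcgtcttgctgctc
The window of Ctss, a gene that rose, lies on the plus strand at chr3:95526536-95526835 and holds the response element core, in capitals, 21 bases before the start.
Ctss: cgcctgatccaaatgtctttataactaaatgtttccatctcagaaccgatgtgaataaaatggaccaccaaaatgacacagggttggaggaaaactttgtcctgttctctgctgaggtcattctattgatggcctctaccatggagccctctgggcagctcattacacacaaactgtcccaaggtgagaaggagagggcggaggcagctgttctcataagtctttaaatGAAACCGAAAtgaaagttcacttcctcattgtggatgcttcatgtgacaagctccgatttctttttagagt
Stretches of 30 bases from 3 other windows follow, with the motif in capitals. They are an E-box core of Ctsl (chr13:64370739-64370768, minus strand), the pair of E-box cores around a start of Ctsa (chr2:164833757-164833786, plus strand) and the gamma-activated site core of Ctsc (chr7:88277838-88277867, plus strand).
Ctsl: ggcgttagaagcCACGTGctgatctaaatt
Ctsa: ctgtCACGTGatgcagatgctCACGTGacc
Ctsc: cagctttggcgTTCCTTGAAaggcagaggt
Of 32851 promoter windows, 7.15% held CACGTG, 3.44% held the interferon-stimulated response element core and 8.3% held TTCNNNGAA. The windows of Cst3, Ctsk and Ctsz, and the other window of Ctsa, held none of these letters. A match describes the letters of the window and is not evidence of binding, and no match says only that the letters are not in it.

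Ctsd, which encodes the aspartic protease of the lysosome (chr7:142375911-142388038 on GRCm38, as in GENCODE M21 for every gene position given), had a larger fitted fall than the other abundant members, except that Ctsb fell more (-0.95 against -0.84 on the log2 scale) once a trend over transcript length was removed. The libraries of LLC alone, in replicate order, read 162.9, 159.66 and 175.3 FPKM, and the co-injected libraries read 90.8, 96.18 and 88.78 FPKM. Every library of LLC with BMSCs lay below every library of LLC alone. The mean fell from 166 ± 8.25 to 91.9 ± 3.83 FPKM (SD, n = 3), and the log2 fold change in counts was -0.87 with a standard error of 0.06 (edgeR adjusted p = 2.1e-05).

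Ctsb encodes cathepsin B, a cysteine protease that can also act as a carboxypeptidase (chr14:63122462-63145923). The 3 libraries of LLC alone gave 155.35, 155.44 and 166.61 FPKM, and those of LLC with BMSCs gave 96.8, 97.36 and 97.49 FPKM. The groups did not overlap and the co-injected libraries lay close together. The mean fell from 159 ± 6.48 to 97.2 ± 0.37 FPKM (SD, n = 3), with a log2 fold change of -0.73 and a standard error of 0.06 (edgeR adjusted p = 2.5e-05).

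Ctsa encodes cathepsin A, a serine carboxypeptidase that also protects lysosomal neuraminidase and beta-galactosidase (chr2:164832873-164841032). It was read at 44.33, 42.37 and 46.86 FPKM in LLC alone and at 31.86, 32.51 and 30.13 FPKM in LLC with BMSCs. No library of one group reached the other. The log2 fold change was -0.52 with a standard error of 0.06 (edgeR adjusted p = 2.6e-04). Its transcript NM_001038492 fell from 8.99 ± 0.80 to 4.02 ± 0.06 FPKM and NM_008906 from 33.4 ± 3.60 to 25.1 ± 1.28 FPKM, while 2 transcripts that the authors' pipeline assembled did not exceed 2.04 FPKM in any library.

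Ctsl encodes cathepsin L, an endopeptidase of the lysosome (chr13:64359337-64370890). FPKM values were 258.69, 272.13 and 302.11 in LLC alone and 188.1, 222.59 and 222.78 in LLC with BMSCs. The groups did not overlap, although replicate 1 of LLC with BMSCs lay well below its other libraries. The mean went from 278 ± 22.2 to 211 ± 19.97 FPKM (SD, n = 3), and the log2 fold change was -0.42 with a standard error of 0.09 (edgeR adjusted p = 0.0044).

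Cst3, which encodes the secreted inhibitor cystatin C (chr2:148871722-148875692), was among the most abundant genes of the set. In FPKM it read 258.46, 255.78 and 327.77 in LLC alone and 191.23, 233.45 and 226.86 after co-injection. The groups did not overlap, but replicate 3 of LLC alone stood above and replicate 1 of LLC with BMSCs below the rest of their groups. The log2 fold change was -0.39 with a standard error of 0.12 (edgeR adjusted p = 0.0202). Without replicate 3 of LLC alone it was -0.26 (adjusted p = 0.017), and without replicate 1 of LLC with BMSCs it was -0.31 and was no longer called (adjusted p = 0.0753).

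Ctsz encodes cathepsin Z, a carboxypeptidase of the cysteine family (chr2:174427493-174439039), and was the abundant member with a higher mean in LLC with BMSCs. Its libraries gave 145.96, 143.41 and 171.24 FPKM without BMSCs and 170.72, 188.96 and 181.97 FPKM with them. The groups overlapped, because replicate 3 of LLC alone lay just above replicate 1 of LLC with BMSCs. The log2 fold change was 0.21 with a standard error of 0.08 and was not called (edgeR adjusted p = 0.0575). Without replicate 3 of LLC alone it was 0.30 and called (adjusted p = 9.3e-04), so that 1 library decides this call, and with each library's trend over transcript length removed it was 0.31 (adjusted p = 1.7e-04). A p above the threshold does not show that the groups were alike.

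**Figure D2:**
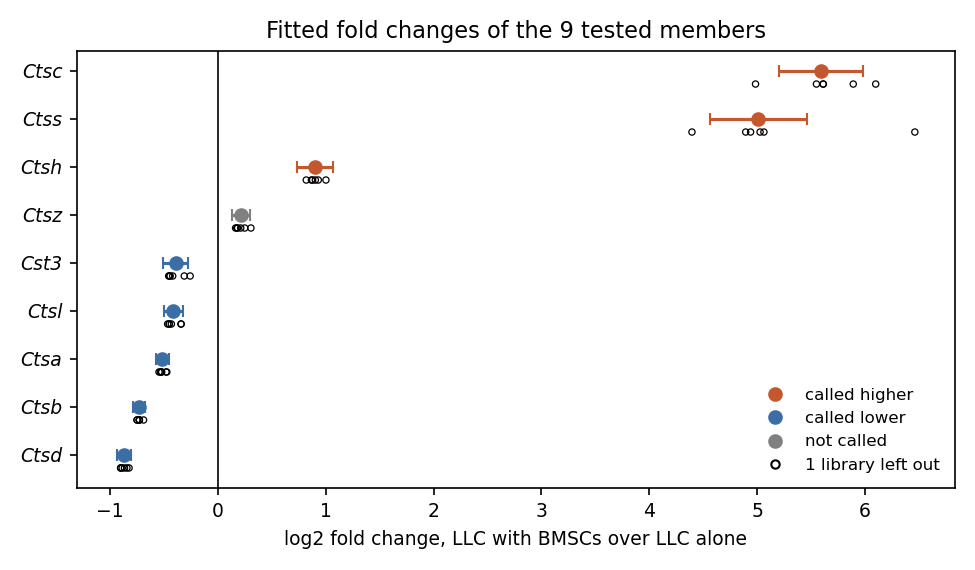
Fitted log2 fold change of LLC with BMSCs over LLC alone for the 9 tested genes, with bars of 1 standard error, orange for called higher, blue for called lower and grey for not called. Small open circles give the same value with 1 of the 6 libraries left out, and all of them stayed on the same side of 0 as the full fit for each gene.

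Ctsc, Ctss and Ctsh, the 3 members that rose, were at low levels in both groups. Ctsc encodes dipeptidyl peptidase 1 (chr7:88278085-88310888), which activates serine proteases of granules in neutrophils, mast cells and cytotoxic lymphocytes. It had 2, 2 and 0 estimated counts in LLC alone and 73, 73 and 79 in LLC with BMSCs, or at most 0.01 FPKM against 0.25 to 0.26 FPKM. The libraries of the groups lay far apart, and the fitted log2 fold change was 5.59 with a standard error of 0.39 (edgeR adjusted p = 1.6e-05). From the totals of 4 and 225 counts, the ratio after scaling to library size was 52.7, with an exact 95% interval of 20.3 to 195 that covers counting error only.

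Ctss encodes cathepsin S (chr3:95526786-95556403), which trims the invariant chain in cells that present antigen on MHC class II. It had 4, 1 and 0 counts in LLC alone and 57, 60 and 67 in LLC with BMSCs, or up to 0.07 FPKM against 0.99 to 1.19 FPKM. Here too the groups were far apart, with a fitted log2 fold change of 5.01 and a standard error of 0.45 (edgeR adjusted p = 5.7e-05). The totals of 5 and 184 counts gave a ratio of 34.5, with an exact 95% interval of 14.5 to 107. Its counts fell on transcript NM_021281 in every library but replicate 3 of LLC with BMSCs, where NM_001267695 took 7.32 of 67.

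Ctsh encodes cathepsin H, an aminopeptidase (chr9:90054152-90076089). It had 33, 25 and 31 counts in LLC alone and 51, 66 and 61 in LLC with BMSCs, with 0.44 to 0.48 FPKM against 0.73 to 0.96 FPKM. The groups did not overlap, and the log2 fold change was 0.90 with a standard error of 0.17 (edgeR adjusted p = 0.0023). Ctsk, the collagen-cutting cathepsin of osteoclasts (chr3:95499256-95509362), had 10, 5 and 10 counts in LLC alone and 5, 15 and 10 in LLC with BMSCs. These values overlapped, the ratio was 1.12 with an exact 95% interval of 0.639 to 1.99, and a 3-against-3 exact permutation test of FPKM gave a two-sided p of 0.7, where the smallest possible is 0.1. Ctsk and Ctss are neighbours on chromosome 3, with 17.4 kb from the end of Ctsk to the start of Ctss.

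These are bulk libraries, in which fewer cells of a type and less RNA per cell cannot be told apart. Beside the rise of Ctsc and Ctss, markers of other cells also rose. Of 14 tested macrophage markers 10 were called higher and 2 lower, and the summed level of the 20 listed was 26.1 to 30.1 CPM in LLC alone and 49.5 to 51.9 CPM in LLC with BMSCs. The F4/80 gene Adgre1 had 0, 0 and 0 counts in LLC alone and 60, 79 and 63 in LLC with BMSCs, while the macrophage marker Cd68 was called lower and C1qa, C1qb and C1qc had at most 3 counts in any library. Several of the 10, such as Adgre1, passed the filter only through LLC with BMSCs, and with at least 10 counts in every library 4 were tested, of which 2 were higher and 1 lower. All 8 tested neutrophil markers were called higher, from a summed 1.42 to 1.71 CPM to between 24.0 and 26.8 CPM, with Ly6g at no more than 4 counts, and S100a8 went from 0, 2 and 1 counts to 254, 300 and 302. Most of these also entered the test only through LLC with BMSCs, where they are high, which set their direction, and with at least 10 counts in every library 2 were tested and called higher. Of 8 neutrophil markers tested, 7 were called with DESeq2 or without replicate 1 or 2 of LLC with BMSCs. Of 9 tested, 8 were called without replicate 1 of LLC alone or with close pairs of libraries summed. All 11 tested markers of BMSCs and fibroblasts were called higher, with a sum of 365.5 to 431.3 CPM against 824.2 to 868.6 CPM. The number was 10 with DESeq2, without replicate 2 of LLC alone or without replicate 3 of LLC with BMSCs. It was 9 with the length trend removed, without replicate 1 of LLC alone or without replicate 1 or 2 of LLC with BMSCs. Col1a1 rose from 2, 4 and 4 counts to 586, 499 and 477. In the sum Col3a1 had means of 226 CPM in LLC alone and 550 CPM in LLC with BMSCs. Thy1 and Cxcl12 were not tested and had 0 counts in each library of LLC alone. In LLC with BMSCs, Thy1 had 0, 2 and 1 counts and Cxcl12 12, 7 and 8. Col1a1, Dcn and Lum passed the filter only through LLC with BMSCs, where they are high, which set their direction. With at least 10 counts in every library 8 markers were tested and called higher.

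Further marker lists gave these values. Dendritic cell markers summed to 11.07 to 11.83 CPM in LLC alone and 14.02 to 14.61 CPM in LLC with BMSCs, with 2 of 5 tested called higher and 1 lower. Osteoclast markers summed to 25.2 to 29.6 CPM and 42.4 to 47.9 CPM, with 2 of 3 tested called higher. In that sum Mmp9 had means of 0.469 and 16.8 CPM, and Nfatc1, which was not called, 26.6 and 26.6 CPM. With the length trend removed, or without a filter on low counts, 1 marker was called lower. Ocstamp went down, from 4, 2 and 8 counts to 1, 0 and 0, and Dcstamp had 3, 0 and 3 against 0, 1 and 0. Neither passed the filter. Mmp9 had 19, 13 and 28 counts in LLC alone and 756, 721 and 751 in LLC with BMSCs, and Acp5 had 17, 11 and 13 against 36, 52 and 44, while Calcr, a defining osteoclast gene, had at most 1 count in any library. None of 11 lymphocyte and NK markers passed the filter, and their sums lay at 0.433 to 0.498 CPM and 0.295 to 0.472 CPM. Erythroid markers had 3 of 4 tested called higher, and 1 of 2 with at least 10 counts in every library. Hbb-bs and Hbb-bt passed the filter only through LLC with BMSCs, where they are high. Of 2 tested endothelial markers 0 were called by edgeR or DESeq2, with 0 at an unadjusted p under 0.05. Without a filter on low counts edgeR called 1 and limma 2 of 7, and edgeR called 1 of 3 with close pairs of libraries summed. The part of these cells in the results for Ctsc, Ctss and Ctsh was not tested. For the sorted LLC cells themselves, the keratin gene Krt8 was at 95.3 and 110 FPKM, whereas the epithelial markers Epcam, Cdh1 and Krt19 had at most 5 counts in any library. Krt18 had 2, 4 and 8 counts in LLC alone and 41, 37 and 37 in LLC with BMSCs, through which alone it passed the filter. Both tested epithelial markers, Krt8 and Krt18, were called higher (edgeR adjusted p = 0.0374 and 2.2e-04). Only 1 of the 2 was called with upper quartile scaling, with a replicate block or with close pairs of libraries summed. The same held without replicate 1 or 2 of LLC alone, or without any one library of LLC with BMSCs.

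Levels between genes were compared in FPKM, which is per length. In LLC alone the order of the means was Cst3, Ctsl, Ctsd, Ctsb, Ctsz, Ctsa, Ctsh, Ctsk, Ctss and Ctsc. Cst3 and Ctsl overlapped in their libraries, as did Ctsd, Ctsb and Ctsz, and Ctss and Ctsc. In LLC with BMSCs, Ctsz moved from the fifth to the third place and overlapped Ctsl, while Ctsb and Ctsd lay below it with no overlap. The lower places there were Ctsa, Ctss, Ctsh, Ctsc and Ctsk, none of which overlapped its neighbour, and Cst3 and Ctsl again overlapped. Among all listed genes Ctsz went from rank 529 to 379, Ctsb from 512 to 774 and Ctsd from 492 to 824.

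The summed FPKM of the 9 cathepsins was 768, 774 and 863 in LLC alone and 580, 640 and 624 in LLC with BMSCs. No library overlapped, and the mean went from 801 ± 53.2 to 615 ± 30.9 FPKM (SD, n = 3). Within that sum the share of Ctsz was 19.1% ± 0.66 without and 29.4% ± 0.18 with BMSCs, that of Ctsd 20.7% ± 0.45 and 15.0% ± 0.71, and that of Ctsb 19.9% ± 0.49 and 15.8% ± 0.76. Ctsl held 34.6% ± 0.82 and 34.3% ± 1.70 and overlapped between the groups. The ratio of Ctsz to Ctsb in FPKM was 0.940, 0.923 and 1.03 in LLC alone and 1.76, 1.94 and 1.87 in LLC with BMSCs, again with no overlap. These shares are descriptions and were not tested.

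**Figure D3:**
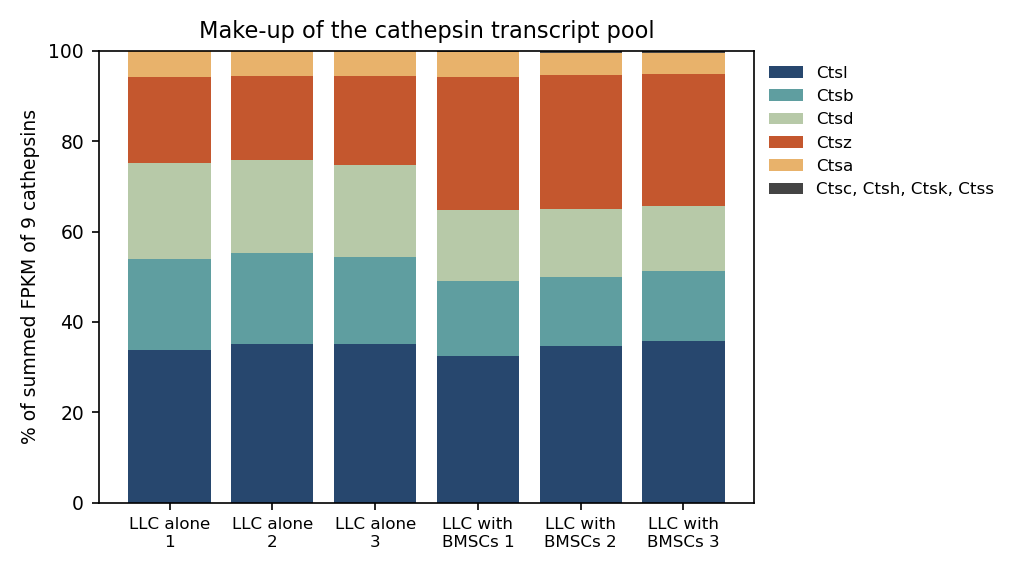
Share of each cathepsin in the summed FPKM of the 9 cathepsin genes, in percent, for each of the 6 libraries. The Ctsz band spans 18.5 to 19.8% in LLC alone and 29.2 to 29.5% in LLC with BMSCs, the bands of Ctsb and Ctsd are narrower in the latter, and that of Ctsl overlaps.

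The balance of protease and inhibitor transcripts was taken as the summed FPKM of the 7 cysteine cathepsins divided by that of Cst3. It was 2.17, 2.23 and 1.95 in LLC alone and 2.39, 2.19 and 2.22 in LLC with BMSCs. The groups overlapped, with means of 2.12 ± 0.15 and 2.27 ± 0.11 (SD, n = 3), while the summed cysteine cathepsins (591 ± 43.3 and 491 ± 29.3 FPKM) and Cst3 did not overlap. The ratio of Cst3 to Ctsl overlapped as well, at 1.01 ± 0.07 and 1.03 ± 0.02.

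Some of these genes share exons with a neighbour, which matters because the sources used here do not say whether counting used the strand. Ctsz and Nelfcd, on opposite strands, share 10 exon bases, and their estimated counts summed to whole numbers in every library within a tolerance of 0.02. Nelfcd had a log2 fold change of -0.03, and the sum of both genes had a log2 ratio of 0.18. Ctsb shares 774 exon bases with Fdft1 on the opposite strand, and the sum of both had a log2 ratio of -0.68 in CPM. Ctsa shares 495 with Pltp and 324 with Neurl2 on the opposite strand. Ctsl shares 1742 with the antisense gene Gm47123 and 395 with the processed pseudogene Gm49230, and Ctsd shares 808 with Gm49369 on its own strand. The counts of Ctsa, Ctsb, Ctsl and Ctsz were fractional in 6 of 6 libraries, and their values are uncertain to the extent that reads were divided between such genes. Those of Ctsd were whole in all 6.

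Of the other cathepsins and legumain, 4 of 8 listed genes were tested and 2 were called higher, Ctsg and Ctsw. The count was 1 without any one library of LLC with BMSCs, and 0 of 2 tested with at least 10 counts in every library. Legumain (Lgmn), the asparaginyl protease that processes several cathepsins, was at 53.8 ± 2.41 and 54.0 ± 0.49 FPKM, with a log2 fold change of -0.02 and a standard error of 0.06 (edgeR adjusted p = 0.820).  Ctsw, a cathepsin of cytotoxic lymphocytes, had 1, 8 and 10 counts against 18, 21 and 22, with a log2 fold change of 1.56 (edgeR adjusted p = 0.0279). Ctsg, the serine protease of neutrophil granules, had 0 counts in each library of LLC alone and 15, 15 and 10 in LLC with BMSCs, through which alone it passed the filter.

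Among the other cystatins and inhibitors, 2 of 7 tested were called higher and 2 lower, against 31.5% and 31.3% of all tested genes. Over the alternatives, with 5 to 14 genes tested, 1 to 6 were called higher and 2 to 3 lower. Their median log2 fold change ran from -0.52 to 0.85. Cstb, the intracellular inhibitor stefin B, fell from 216 ± 26.5 to 153 ± 12.2 FPKM with a log2 fold change of -0.52 and a standard error of 0.10 (edgeR adjusted p = 0.0027). Fetub, a secreted cystatin-family protein, fell from 7.61 ± 0.73 to 1.94 ± 0.41 FPKM with a log2 fold change of -1.98 (edgeR adjusted p = 2.3e-05). Cst7, the leukocyte cystatin F, had 0, 0 and 1 counts in LLC alone and 4, 9 and 6 in LLC with BMSCs and was not tested. The intracellular inhibitor Stfa3 went from 0 counts in each library of LLC alone to 28, 43 and 32 in LLC with BMSCs, through which alone it passed the filter.

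Other lysosomal genes were read beside the cathepsins, with 31.5% of all tested genes called higher and 31.3% lower as the background. Of 32 tested lysosomal hydrolases 17 were lower and 8 higher, and the median of their log2 fold changes was -0.29. Scpep1, a serine carboxypeptidase, fell from 183 ± 5.49 to 86.8 ± 3.53 FPKM and Gla, alpha-galactosidase A, from 17.96 ± 0.42 to 9.35 ± 0.23 FPKM, while Arsa, arylsulfatase A, rose from 15.5 ± 0.57 to 32.0 ± 1.51 FPKM. Of 22 lysosomal membrane and sorting genes 12 were lower and 4 higher, with a median of -0.26. Lamp1, a main glycoprotein of the lysosomal membrane, fell from 371 ± 12.7 to 230.2 ± 10.3 FPKM, the tetraspanin Cd63 from 987 ± 91.6 to 632 ± 24.3 FPKM and the sorting adaptor Gga2 from 10.3 ± 0.37 to 5.47 ± 0.10 FPKM.

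The V-ATPase, which pumps protons into the lysosome and so sets the pH at which cathepsins work, had 18 of 20 tested subunits lower and 1 higher, and the median of their log2 fold changes was -0.79. Atp6v0b fell from 94.4 ± 14.5 to 30.9 ± 0.46 FPKM, with a log2 fold change of -1.63 and a standard error of 0.11 (edgeR adjusted p = 1.3e-05). Atp6v1g1 fell from 236 ± 29.3 to 86.4 ± 5.12 FPKM with a log2 fold change of -1.47 (edgeR adjusted p = 1.3e-05), and Atp6v1h from 74.4 ± 5.24 to 29.7 ± 1.43 FPKM. Over the alternatives the median of these subunits ran from -0.86 to -0.75, that of the hydrolases from -0.39 to -0.26 and that of the membrane and sorting genes from -0.37 to -0.17.

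**Figure D4:**
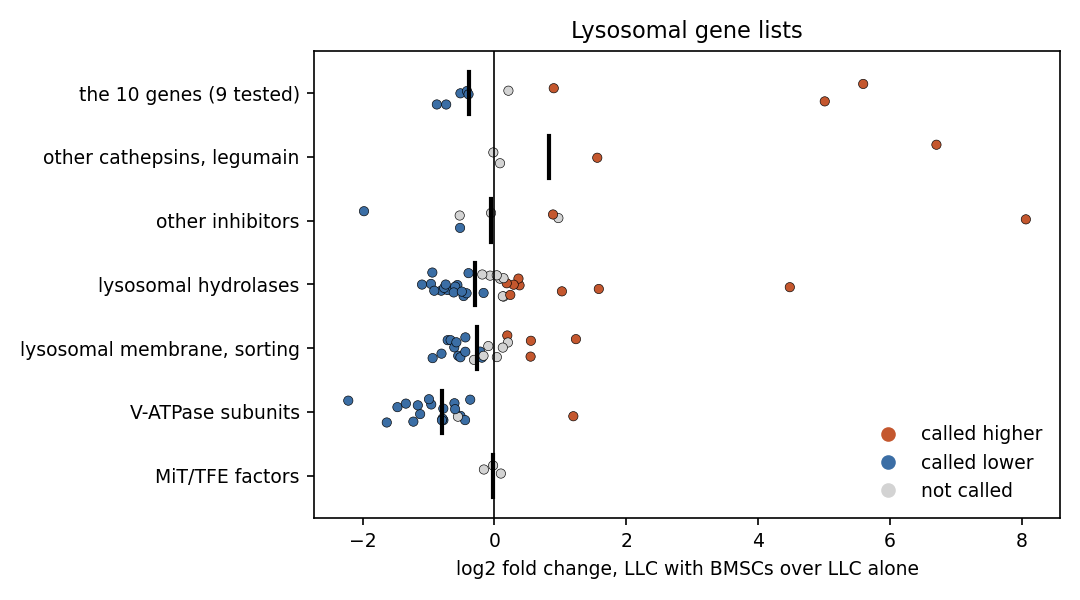
Log2 fold change of LLC with BMSCs over LLC alone for each tested gene of 7 lists, 1 point per gene, orange for called higher, blue for called lower and grey for not called, with a black bar at the list's median. The V-ATPase list has its median at -0.79 and the lysosomal hydrolases at -0.29, and the 3 tested MiT/TFE factors lie near 0.

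The MiT/TFE factors switch on genes of the lysosome. Of the 3 tested, 0 were called by edgeR or DESeq2, and 0 had an unadjusted p under 0.05 with either. The fourth, Tfec, had 0 counts in each library of LLC alone and 4, 9 and 2 in LLC with BMSCs, and was called higher by edgeR, but not by limma, when low counts were not filtered. Tfeb had a log2 fold change of -0.16 with a standard error of 0.10 (edgeR adjusted p = 0.177), Tfe3 of 0.10 with 0.07 (adjusted p = 0.275) and Mitf of -0.02 with 0.17 (adjusted p = 0.924).

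The MHC class II list, the setting in which Ctss acts, split in direction with edgeR's filter on low counts. Of 5 tested genes 2 were higher and 2 lower, and the median log2 fold change was 0.05. The 2 called higher, H2-Aa and H2-Ab1, passed the filter only through LLC with BMSCs, where they are high, which set their direction. With at least 10 counts in every library 3 were tested, of which 0 were higher and 2 lower, and the median was -0.84. That median ran from -0.84 to 0.19 over the alternatives, which did not all test the same genes. It was -0.47 without replicate 2 of LLC alone and -0.43, -0.39 and -0.37 without replicates 1, 2 and 3 of LLC with BMSCs. In these fits 6 genes were tested in place of 5. With 5 tested it was -0.01 and 0.17 without replicates 1 and 3 of LLC alone. Cd74, the invariant chain that cathepsin S trims, fell from 4.93 ± 0.77 to 2.80 ± 0.28 FPKM with a log2 fold change of -0.85 and a standard error of 0.14 (edgeR adjusted p = 0.0014). H2-Aa had 0, 0 and 1 counts in LLC alone and 11, 13 and 20 in LLC with BMSCs. H2-DMa, a chaperone of peptide loading, fell from 2.51 ± 0.36 to 1.09 ± 0.11 FPKM. All 20 interferon-stimulated genes of the list were called higher, against 31.5% of all tested genes. Their sum was 91.7 to 97.6 CPM in LLC alone and 668.5 to 691.5 CPM in LLC with BMSCs. Several, such as Oas2 and Mx2, passed the filter only through LLC with BMSCs, where they are high, which set their direction. With at least 10 counts in every library 12 were tested and called higher.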

How the data were processed

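RNA sequencing of sorted LLC cells was used in 6 libraries, 3 per group, with groups and replicate numbers taken from the labels. According to the methods, libraries were read on the BGISEQ-500, while the labels name Illumina protocols. The submitters' processing notes name HISAT, StringTie, Cufflinks, GATK and mm8 without their roles, and the quantification program is not given in the sources used here. What the authors deposited are estimated counts for genes and transcripts, which may be fractional, FPKM values per gene and transcript (scaled by length and library total), and gene lengths. The totals were 33476347 to 46189113 counts per library, at which 3 counts are 0.0650 to 0.0896 CPM. The files carry no coordinates, so positions are from GENCODE M21 and RefSeq on GRCm38, matched by symbol or gene identifier.

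Estimated counts were rounded and tested with edgeR 4.0.16 in R 4.3.3 (TMM, default filter, quasi-likelihood test), with Benjamini-Hochberg adjustment over 13353 genes calling at 0.05. The size of a log2 fold change over the root of its F statistic gave the standard error. FPKM served for levels and shares. Scripts were tested on simulated data. The members and gene lists were chosen with earlier results of these data known. Of the other lists, the 4 called genes of largest change and a mean of 100 or more normalized counts could be named, and Lgmn, Cstb, Cst7, Tfeb and Cd74 always; other genes named with counts (such as Adgre1, S100a8, Stfa3 and Ctsg) were chosen after their values were seen. Alternatives were DESeq2 1.42.0, limma 3.58.1, other scalings and filters, removal of a length trend, a replicate block, close pairs summed and each library left out.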

Additional observations from a re-analysis of the deposited data

How the results depend on the processing

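Of 145 alternative values of single genes, 138 kept their direction and side of the threshold, 5 passed it and 2 lost it, and none changed direction. Ctsz passed without TMM (0.23, adjusted p = 0.0394), with limma on log2(FPKM + 1) or log2(FPKM + 0.1) (0.24, adjusted p = 0.0372 and 0.0378), and in the cases given above. Cst3 also lost its call with limma without a filter (-0.36, adjusted p = 0.0564), and its log2 fold change was -0.17 with the length trend removed. The members called higher were 1 in place of 3 with at least 10 counts in every library and with limma at either pseudocount, where low genes leave the test. When a log2 fold change of 1 or more in size was also required, the members called lower were 0 in place of 5, and all genes called higher and lower were 1155 and 957 in place of 4210 and 4183. The balance of cysteine cathepsins to Cst3 was 9.27 and 8.96 in CPM, and 2.88 and 2.84 with Ctsd and Ctsa added, in LLC alone and LLC with BMSCs. With the replicate number as a replicate block, the same members were called, Cst3 had -0.39 (adjusted p = 0.0092) and Ctsz 0.22 (adjusted p = 0.0563), and all genes called were 4161 higher and 4058 lower. Deviations of same-numbered libraries correlated at 0.0762, -0.106 and 0.0572. With 3 libraries per group these values cannot decide whether the numbers pair the samples, and no source used here says that they do. Pairs of libraries that lay close together (LLC alone replicates 1 and 2, LLC with BMSCs replicates 2 and 3) gave 3364 higher and 3301 lower genes when summed. Leaving out 1 library, fitted values ran from 4.40 to 6.46 for Ctss and from 4.99 to 6.10 for Ctsc. Depth limits Ctsk, at 5 to 15 counts, and the LLC alone values of Ctsc and Ctss, at 0 to 4 counts.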
